A study of Mus musculus with 12 samples.

Results

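The genes described here encode proteins of the splicing machinery: the SR proteins (*Srsf* genes), the heterogeneous nuclear ribonucleoproteins (*Hnrnp* genes), proteins of the small nuclear ribonucleoprotein particles or snRNPs (*Snrp* genes), the SF3a and SF3b subunits of the U2 snRNP (*Sf3a* and *Sf3b* genes) and the pre-mRNA processing factors (*Prpf* genes). They were chosen by symbol alone from the count tables, in which 62 of 23420 genes carried such a symbol: 11 *Srsf*, 18 *Hnrnp*, 12 *Snrp*, 8 *Sf3* and 13 *Prpf* genes. All 62 passed the filter on low counts in each line. RNA came from whole mouse embryos at embryonic day 12.5, with 1 embryo per library and 3 embryos per group. The *Carm1* line, on C57BL/6, compared wild-type embryos with *Carm1* KO/KO embryos, which lack exons 2 and 3 of this arginine methyltransferase gene in every cell. The *Pax3* line, on a mixed CBA/Ca, 101 and C3H/He background, compared wild-type embryos with splotch embryos homozygous for the loss-of-function allele *Pax3* Sp2H, a second model with heart defects. Strain and laboratory differ between the lines and cannot be told apart from the line itself, so each mutant was compared with the wild type of its own line. A whole embryo mixes all tissues, and fewer cells of a type cannot be told apart from less RNA per cell.

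Splicing removes introns from pre-mRNA. The U1 snRNP pairs with the 5′ splice site and the U2 snRNP with the branch point, and the U4/U6.U5 tri-snRNP then joins to form the active spliceosome. The spliceosomal snRNPs except U6 carry a ring of Sm proteins, encoded by *Snrpb*, *Snrpd1*, *Snrpd2*, *Snrpd3*, *Snrpe*, *Snrpf* and *Snrpg*, which the SMN complex loads onto the snRNA after arginines of some Sm tails have been methylated. SR proteins mostly promote the use of the exons they bind, whereas hnRNP proteins often repress it. CARM1 is known to methylate several splicing factors, among them SmB (*Snrpb*), the U1 snRNP protein C (*Snrpc*) and SAP49 (*Sf3b4*), and the comparison asks whether the RNA levels of such factors differ when CARM1 is lost.

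The 12 libraries held 17183344 to 23518692 counts on genes. Counts on *Carm1* fell from 151, 145 and 137 CPM (counts scaled to library size) in wild-type embryos to 71.3, 69.3 and 76.2 in *Carm1* KO/KO embryos, where the remaining exons are still counted. *Pax3* fell by 0.43 on the log2 scale in *Pax3* Sp2H/Sp2H embryos, although counts over a whole gene do not resolve the lesion itself. In the *Carm1* line only wild-type replicate 3 held Y-linked counts at or above 100. In the *Pax3* line wild-type replicates 2 and 3 and mutant replicate 3 did. Libraries of a group were not copies of each other. CPM values below were scaled by TMM within a line, and fold changes are mutant over wild type on the log2 scale with the standard error. A gene is called when edgeR's quasi-likelihood test gives it an adjusted P (Benjamini-Hochberg, over all genes tested) under 0.05. The standard error was worked back from this test, as the size of the fold change divided by the square root of its F statistic.

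The 62 genes took 1.72 to 1.83% of the counts in *Carm1* wild-type libraries and 1.79 to 1.92% in *Carm1* KO/KO libraries. They took 1.94 to 1.96% in *Pax3* wild-type libraries and 2.05 to 2.13% in *Pax3* Sp2H/Sp2H libraries. The hnRNP genes made up most of this, with summed levels of 9732 to 9910 CPM in *Carm1* wild-type and 10231 to 10568 CPM in *Pax3* wild-type libraries. *Hnrnpa2b1*, whose product shuttles between nucleus and cytoplasm and binds exon and mRNA sequences, had the highest level of all members per length, at 1049 CPM per kb of its reference transcript over the 6 wild-type libraries, followed by *Hnrnph1* at 452. *Snrpe* led the Sm genes per length, at 181 CPM per kb, and *Srsf12*, a divergent SR protein, was at 3.84. *Snrpn*, a paralog of *Snrpb* expressed mainly in neurons, was at 19 to 40 counts per library, too few to show a small difference. Exons of *Snurf* and *Gm38393* on the same strand overlap *Snrpn*, so its count is uncertain and may understate its level. Replicate spread was low, with a median coefficient of variation over the 62 genes of 4.05% and 3.04% in wild-type and mutant libraries of the *Carm1* line and 5.30% and 3.33% in those of the *Pax3* line.

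In *Carm1* KO/KO embryos, splicing factor genes shifted little, and every call was an increase. Of the 62 genes, 7 were called higher and 0 lower, against 5.49% and 7.83% of the 15811 genes tested, or 13.3% in either direction. At an unadjusted P under 0.05, 16 members were higher and 1 lower, where 4176 of the 15811 genes had such a P. DESeq2 called 7 higher and 0 lower, but *Sf3a3*, called by edgeR, was not among them (DESeq2, adjusted P = 0.0648). The sizes of the 7 edgeR calls lay between 0.15 and 0.36 on the log2 scale. Fold changes were positive for 50 of the 62, with a median of 0.06, while the median of all genes tested was 0.0014. Libraries of the groups did not overlap for 14 genes that were higher and 1 that was lower, and such separation was seen in 30% of all genes tested. The plot of 61 of these fold changes shows these small shifts beside the wider range in the *Pax3* line.

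**Figure D1:**
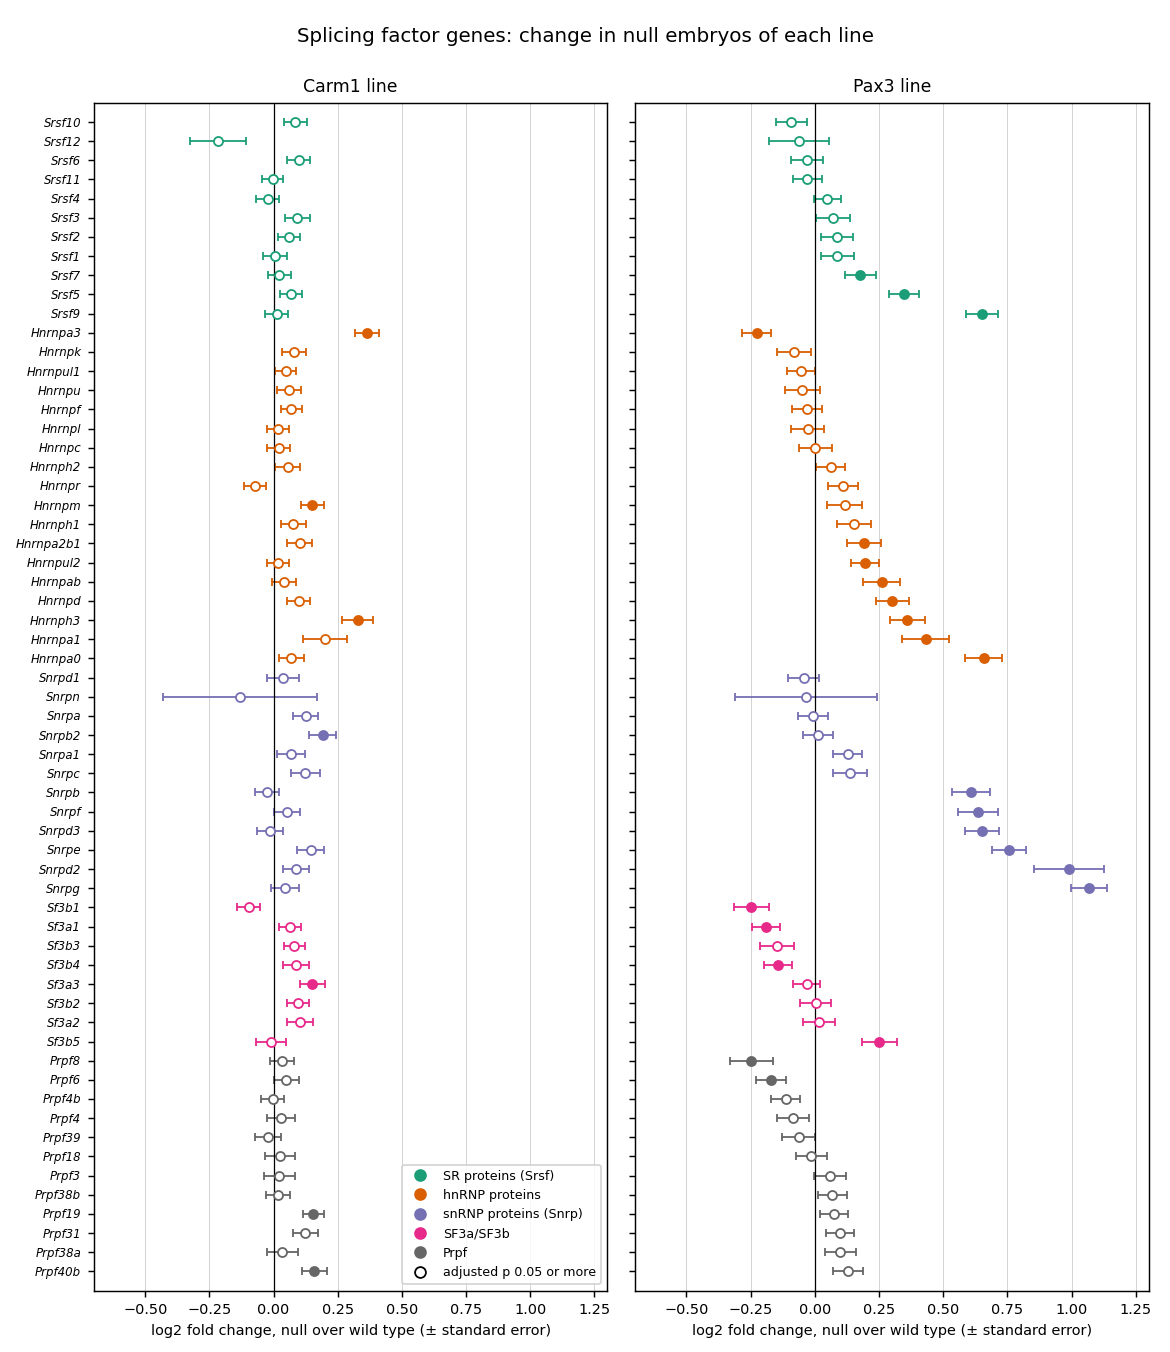
Log2 fold change of 61 of the 62 splicing factor genes, mutant over wild type, with its standard error (3 against 3 libraries), in the *Carm1* line (left) and the *Pax3* line (right). Filled points have an adjusted P under 0.05: 7 genes in the *Carm1* line, all to the right of 0, and 23 in the *Pax3* line, 17 to the right and 6 to the left.

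The hnRNP class held the largest of these increases. *Hnrnpa3*, which binds RNA through paired recognition motifs and also accompanies mRNA in the cytoplasm, stood at 159, 169.8 and 184 CPM in wild-type and 213, 227 and 221 CPM in *Carm1* KO/KO embryos. The mutant libraries all lay above the wild-type libraries, with a fold change of 0.36 ± 0.05 (edgeR, adjusted P = 1.98e-06). Its reference transcript has 16 near-identical copies elsewhere in the genome, 15 of them pseudogenes, so its count is uncertain where reads fit several of them. *Hnrnph3*, of the hnRNP F/H family that binds runs of G, has no such copy. Its level rose from 46.3, 45.6 and 46.4 CPM to 61.5, 59.3 and 52.5 CPM, a fold change of 0.33 ± 0.06 (edgeR, adjusted P = 1.96e-04). *Hnrnpm*, a regulator of alternative exons, rose from 504, 488 and 485 to 563, 552 and 523 CPM, by 0.15 ± 0.05 (edgeR, adjusted P = 0.0225). Exons of other genes overlap all 3 of these hnRNP genes, so their counts are uncertain there. The overlap is with *Gm24574* for *Hnrnpa3* and *March2* for *Hnrnpm* on the same strand, and with *Rufy2* for *Hnrnph3* on the opposite strand. The other 15 hnRNP genes were not called, with *Hnrnpa1* at 0.20 ± 0.09 and *Hnrnpr* at -0.07 ± 0.04 as the ends of their range.

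Outside the hnRNP genes, 4 members rose in *Carm1* KO/KO embryos, each by less than 0.2. *Snrpb2* encodes U2B″, a protein specific to the U2 snRNP. Its level was 60.0, 62.0 and 64.6 CPM in wild-type and 75.4, 70.5 and 67.0 CPM in mutant embryos, 0.19 ± 0.05 (edgeR, adjusted P = 0.0158). *Sf3a3*, the 60 kDa subunit of SF3a, rose from 84.3, 91.0 and 89.4 to 97.8, 95.7 and 101 CPM, by 0.15 ± 0.05 (edgeR, adjusted P = 0.0332). *Prpf19*, the ubiquitin ligase at the centre of the Prp19 complex, rose from 239.6, 237 and 242 to 272, 261 and 267 CPM, by 0.16 ± 0.04 (edgeR, adjusted P = 0.00854). *Prpf40b*, a U1-associated WW domain protein, rose from 92.4, 88.4 and 87.1 to 100.2, 99.6 and 99.2 CPM, by 0.16 ± 0.05 (edgeR, adjusted P = 0.0204). In all 4 genes the mutant libraries lay above the wild-type libraries.

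These small calls were not equally steady. *Hnrnpa3* and *Hnrnph3* were called under all 15 alternatives of processing or library choice, whereas the other 5 lost their call under 2 to 7 of them. Without wild-type replicate 2, or without mutant replicate 1, only 2 members were called, and without mutant replicate 2 it was 3. Calls over all genes also fell in these fits, from 2106 to 1349, 1224 and 1381. Without wild-type replicate 3, the library with Y-linked counts, 11 were called.

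No *Srsf* gene was called in the *Carm1* line by edgeR. A single *Srsf* gene had an unadjusted P under 0.05, and DESeq2 with its default settings also called 0 of the 11. With the offsets for transcript length and GC content described below, 3 were called higher. *Srsf6*, the member of the class with the smallest P, stood at 439, 427 and 462 CPM in wild-type and 483, 482 and 456 CPM in mutant embryos, and these ranges overlap (0.10 ± 0.05, edgeR, adjusted P = 0.157). *Srsf12* had the lowest fold change, -0.22 ± 0.11 (edgeR, adjusted P = 0.210), at 9.82 to 13.1 CPM in all 6 libraries.

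Without offsets, the genes for these 3 CARM1 substrates were not called in *Carm1* KO/KO embryos either. *Snrpb* was at 200.4, 186 and 183 CPM in wild-type and 194, 176 and 189 CPM in mutant embryos (-0.03 ± 0.05, edgeR, adjusted P = 0.787). *Snrpc* was at 68.3, 68.7 and 81.3 against 82.1, 77.2 and 78.6 CPM (0.12 ± 0.06, edgeR, adjusted P = 0.167). *Sf3b4* was at 91.0, 83.7 and 90.5 against 94.7, 90.4 and 96.3 CPM (0.09 ± 0.05, edgeR, adjusted P = 0.271). In each of these 3 genes the libraries of the groups overlap. With the offsets *Snrpc* was called higher at 0.13 (edgeR with offsets, adjusted P = 0.0440), while *Snrpb* and *Sf3b4* were not called. These values are RNA levels and do not bear on the methylation of the proteins.

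**Figure D2:**
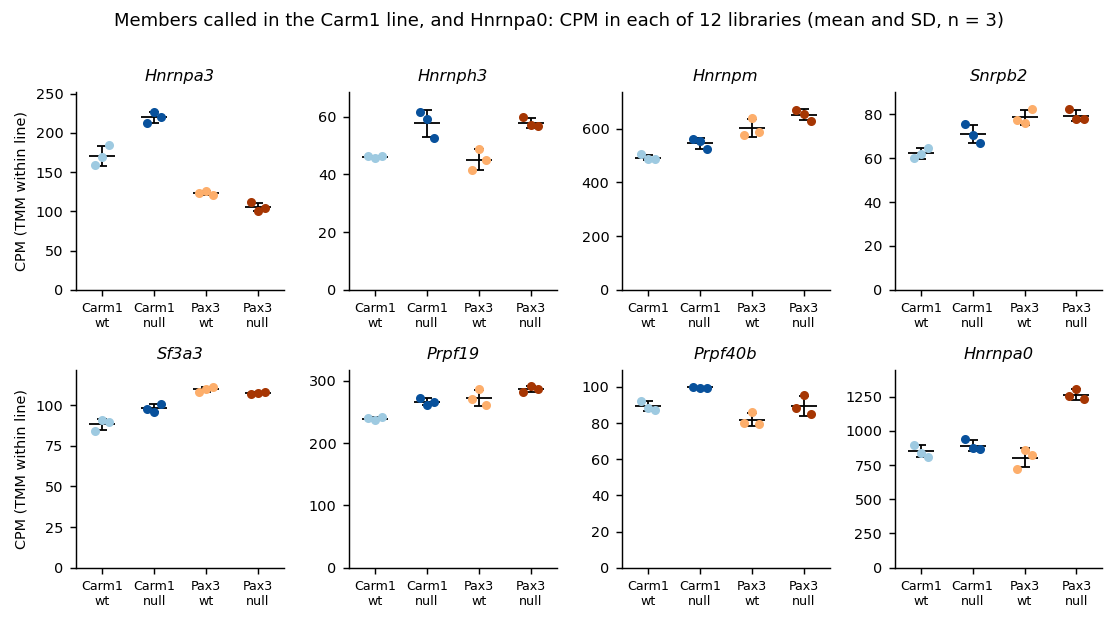
CPM in each of the 12 libraries for the 7 genes called in the *Carm1* line and for *Hnrnpa0*, with the mean and SD of 3 libraries per group. CPM was scaled within each line, so the wild types of the lines are not to be set against each other. *Hnrnpa3* lies above its wild type in *Carm1* KO/KO libraries and below it in *Pax3* Sp2H/Sp2H libraries, while *Hnrnph3* is higher in each mutant.

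In *Pax3* Sp2H/Sp2H embryos, 24 of the 62 genes were called, against 24.5% of the 15724 genes tested. Of these, 17 were higher and 7 lower, where the shares over all genes were 14% and 10.5%. The fold change was at least 0.5 in size for 8 of the 24. The median over the 62 genes was 0.06 and that of all genes tested -0.0026. Libraries did not overlap for 23 genes that were higher and 7 that were lower, with 39.6% of all genes tested so separated, and 22 of the 24 called genes were among them. The exceptions, *Prpf8* and *Prpf6*, are given with their class below.

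The 3 largest increases among the members were in genes of the Sm ring. Of its 7 genes, 6 rose, by 0.61 to 1.07 on the log2 scale, and all 6 were called under each of the 15 alternatives, with 0.30 to 0.90 under the offsets for length and GC content given below. The summed level of the 12 *Snrp* genes was 909 to 1053 CPM in *Pax3* wild-type and 1348 to 1383 CPM in mutant libraries, with no overlap, against 1017 to 1092 and 1058 to 1143 CPM in the *Carm1* line. *Snrpg*, the smallest ring protein (SmG), stood at 45.7, 56.2 and 58.5 CPM in wild-type and 108, 116 and 113 CPM in mutant embryos. Its level was 2.10 times as high, a fold change of 1.07 ± 0.07 (edgeR, adjusted P = 2.68e-10). *Snrpd2* (SmD2) was at 57.4, 85.1 and 76.4 against 144, 143 and 146 CPM, 0.99 ± 0.14 (edgeR, adjusted P = 0.00394). A pseudogene holds a near-identical copy of the *Snrpd2* transcript, so its count is uncertain. Wild-type replicate 1 was the lowest library for each of the 6 genes, and the mutant libraries lay closer together than the wild-type libraries except for *Snrpf*.

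The remaining Sm genes behaved alike. *Snrpe* (SmE) rose from 69.2, 78.4 and 87.2 to 132, 131 and 134 CPM, by 0.76 ± 0.07 (edgeR, adjusted P = 6.08e-09). *Snrpd3* (SmD3) rose from 76.2, 93.4 and 96.2 to 138, 142 and 138 CPM, by 0.65 ± 0.07 (edgeR, adjusted P = 1.75e-07). *Snrpf* (SmF) rose from 37.7, 41.9 and 45.0 to 72.3, 59.2 and 62.1 CPM, by 0.63 ± 0.08 (edgeR, adjusted P = 1.39e-06). *Snrpb*, which encodes SmB and SmB′, rose from 148, 195 and 173 to 259, 265 and 262 CPM, by 0.61 ± 0.07 (edgeR, adjusted P = 1.85e-05). In each of the 6 genes the lowest mutant library lay above the highest wild-type library. On the opposite strand, exons of *Gucd1* overlap *Snrpd3*, and exons of *4933408J17Rik* and *Ccdc38* overlap *Snrpf*, so these 2 counts are uncertain there.

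*Snrpd1* (SmD1) was the exception in the ring. Its libraries stood at 113, 107 and 125 CPM in wild-type and 115, 110.3 and 109.7 CPM in mutant embryos, and they overlap (-0.04 ± 0.06, edgeR, adjusted P = 0.642). The *Snrpd1* transcript also has a near-identical copy in a pseudogene. None of the other *Snrp* genes was called in the *Pax3* line: *Snrpa* and *Snrpc* of U1 and *Snrpa1* and *Snrpb2* of U2 lay between -0.01 and 0.14, and *Snrpn* was at -0.04 ± 0.28. With the offsets *Snrpa* was called lower at -0.27 (edgeR with offsets, adjusted P = 3.97e-04) and *Snrpc* at -0.22 (edgeR with offsets, adjusted P = 0.00481). *Snrpc* stood at 73.8, 87.3 and 85.1 CPM in wild-type and 97.8, 84.9 and 87.9 CPM in mutant embryos. Per kb of transcript, *Snrpe* was the most abundant Sm RNA in *Pax3* wild-type embryos at 156 ± 18 CPM (SD, n = 3), followed by *Snrpb* at 148 ± 20.3 and *Snrpd1* at 134 ± 11.1, neighbours that lie within their spread. *Snrpd3* was lowest at 29.2 ± 3.56 CPM per kb. In mutant embryos *Snrpe* reached 263 ± 3.38, *Snrpb* 226 ± 2.30 and *Snrpd1* 130 ± 3.36 CPM per kb.

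**Figure D3:**
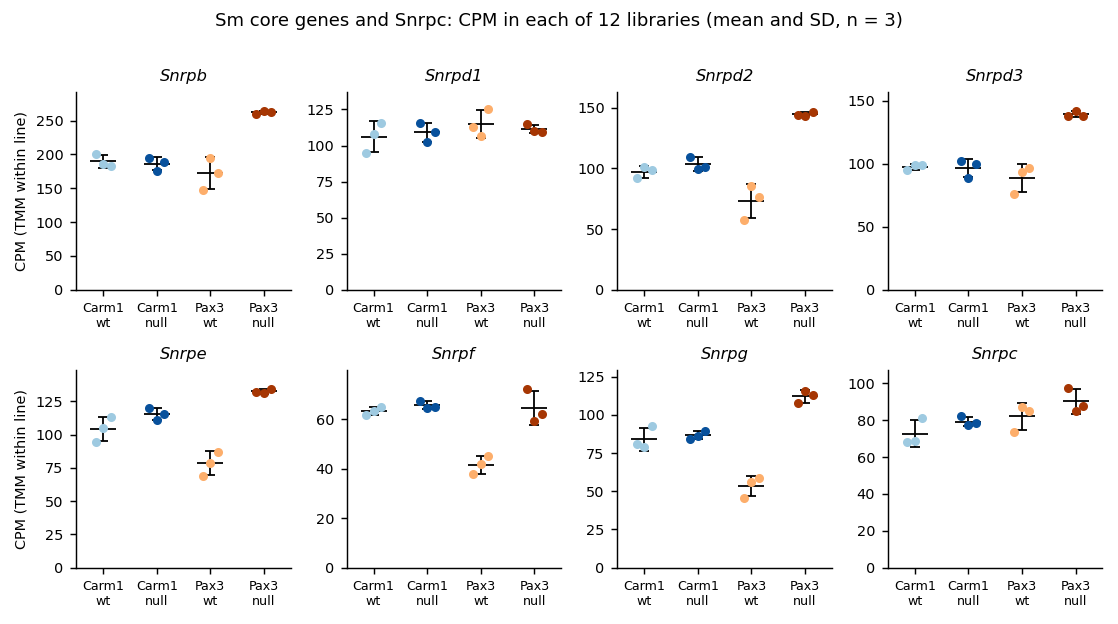
CPM in each of the 12 libraries for the 7 genes of the Sm ring and for *Snrpc*, with the mean and SD of 3 libraries per group (CPM scaled within each line). For *Snrpb*, *Snrpd2*, *Snrpd3*, *Snrpe*, *Snrpf* and *Snrpg* all 3 *Pax3* Sp2H/Sp2H libraries lie above the 3 wild-type libraries of the line, while *Snrpd1* and *Snrpc* overlap and no Sm gene separates in the *Carm1* line.

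DNA upstream of genes with large increases in the *Pax3* line is shown to compare what lies before starts that rose together: 3 Sm genes, *Srsf9* and *Hnrnpa0*. The stretches are from RefSeq (GRCm38.p6), written 5′ to 3′ along the gene and limited to bases outside annotated exons within the 250 bases before the RefSeq start. They lie at chr7:19149588-19149721 (plus strand, *Snrpd2*), chr1:133610292-133610410 (minus strand, *Snrpe*), chr10:93589771-93589908 (minus strand, *Snrpf*), chr5:115326927-115327176 (plus strand, *Srsf9*) and chr13:58128557-58128806 (minus strand, *Hnrnpa0*). Capitals mark a CCAAT box, read as CCAAT or ATTGG.
Snrpd2: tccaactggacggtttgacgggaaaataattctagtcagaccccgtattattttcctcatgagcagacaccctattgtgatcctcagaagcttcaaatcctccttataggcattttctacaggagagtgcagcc
Snrpe: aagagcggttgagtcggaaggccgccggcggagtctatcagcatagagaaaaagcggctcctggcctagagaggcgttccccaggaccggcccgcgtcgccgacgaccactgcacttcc
Snrpf: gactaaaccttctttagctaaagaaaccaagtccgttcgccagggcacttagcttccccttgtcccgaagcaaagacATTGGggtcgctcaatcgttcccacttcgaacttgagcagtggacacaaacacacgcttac
Srsf9: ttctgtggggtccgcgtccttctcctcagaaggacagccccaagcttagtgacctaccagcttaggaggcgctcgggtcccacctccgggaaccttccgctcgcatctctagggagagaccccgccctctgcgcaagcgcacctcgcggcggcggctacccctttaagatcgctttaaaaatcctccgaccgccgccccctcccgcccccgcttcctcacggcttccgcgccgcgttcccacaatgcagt
Hnrnpa0: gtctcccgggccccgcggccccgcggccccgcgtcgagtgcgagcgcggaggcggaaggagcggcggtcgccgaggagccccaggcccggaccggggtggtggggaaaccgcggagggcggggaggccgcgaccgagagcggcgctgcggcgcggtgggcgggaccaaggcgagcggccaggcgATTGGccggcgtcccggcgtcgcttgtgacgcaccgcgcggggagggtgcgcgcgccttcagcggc

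GC content of these 5 stretches ran from 44.8% before *Snrpd2* to 81.2% before *Hnrnpa0*, and a CCAAT box was present in 2 of the 5. The stretches of *Snrpg* and *Snrpd3* are not shown, since annotated exons cover 236 and 250 of their 250 bases. In the whole windows of the 5 Sm genes that rose and have one, 3 held a CCAAT box (60.0%), those of *Snrpd3*, *Snrpf* and *Snrpg*. Over all members, 55 had windows of 250 bases, 75 windows in all, with a median GC content of 59.6% against 52.4% over 32851 windows of the table. A CCAAT box was present in 46.7% of the member windows and 33.8% of all windows. The ETS motif CCGGAAG, on either strand, was present in 28.0% and 6.91%, and the TATA box TATAAA in 8.0% and 12.4%. Among the genes called higher in the *Pax3* line, 8 of 15 windows held a CCAAT box and 4 of 15 the ETS motif. Among those called lower, the motifs were in 2 and 1 of 5 windows. A match of letters is a description of the window and no evidence of binding.

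Among hnRNP genes of the *Pax3* line, 7 were called higher and 1 lower of 18, where 14% and 10.5% of all genes were. *Hnrnpa0*, an intronless A/B-type member that binds AU-rich elements, rose from 724, 857 and 824 to 1255, 1309 and 1229 CPM, by 0.66 ± 0.07 (edgeR, adjusted P = 1.63e-07). *Hnrnph3* rose from 41.5, 48.8 and 45.1 to 59.9, 57.0 and 56.7 CPM, by 0.36 ± 0.07 (edgeR, adjusted P = 3.45e-04). *Hnrnpa1*, a classical silencer of exons, rose from 15.6, 16.1 and 14.9 to 20, 22.8 and 20 CPM, by 0.43 ± 0.09 (edgeR, adjusted P = 8.74e-04). In all 3 genes the mutant libraries lay above the wild-type libraries. *Hnrnpa1* was the hnRNP gene with the lowest level, and 5 pseudogenes hold near-identical copies of its transcript, so its count is uncertain.

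The other 4 increases among hnRNP genes lay between 0.19 and 0.30. They were *Hnrnpd* (AUF1, a regulator of mRNA decay) at 0.30 ± 0.06, *Hnrnpab* at 0.26 ± 0.07, *Hnrnpul2* at 0.20 ± 0.06 and *Hnrnpa2b1* at 0.19 ± 0.07. The single decrease was *Hnrnpa3*, from 123, 126 and 121 to 111, 101 and 104 CPM, by -0.23 ± 0.06 (edgeR, adjusted P = 0.00376). Its mutant libraries lay below all wild-type libraries, the reverse of the *Carm1* line.

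The SR proteins gave 3 calls of 11 in the *Pax3* line, all higher. This share of 27.3% is near the 24.5% of all genes called in either direction, of which 14% were higher and 10.5% lower. *Srsf9*, a short SR protein with paired recognition motifs, rose from 81.6, 101 and 91.8 to 145, 145 and 141 CPM, by 0.65 ± 0.06 (edgeR, adjusted P = 2.86e-08). *Srsf5* rose from 337, 314 and 321 to 404, 430.3 and 402 CPM, by 0.35 ± 0.06 (edgeR, adjusted P = 8.09e-05). *Srsf7*, which also takes part in mRNA export, rose from 342, 376 and 376 to 425, 403 and 409 CPM, by 0.18 ± 0.06 (edgeR, adjusted P = 0.0307). The groups did not overlap for these 3 genes, and 39.6% of all genes tested were so separated. *Srsf1*, the most abundant SR gene by CPM, was not called, at 748, 735 and 761 against 809, 793 and 783 CPM (0.09 ± 0.07, edgeR, adjusted P = 0.351).

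The U2 subunits moved in either direction. Of 8 *Sf3* genes, 3 fell and 1 rose in *Pax3* Sp2H/Sp2H embryos, where 10.5% of all genes were called lower and 14% higher. *Sf3b1*, the large subunit that clamps the branch point helix, fell from 625, 533 and 561 to 491, 483 and 476 CPM, by 0.25 on the log2 scale (SE 0.07, edgeR, adjusted P = 0.00812). *Sf3a1*, the scaffold subunit of SF3a, fell from 221, 217 and 214 to 186, 206 and 179 CPM, by 0.19 (SE 0.05, edgeR, adjusted P = 0.0112). *Sf3b4* was at 116, 113 and 116 against 107, 104 and 101 CPM, -0.14 ± 0.05, a call at the threshold (edgeR, adjusted P = 0.0498) that was lost under 9 of 15 alternatives. *Sf3b5*, the smallest SF3b subunit, rose from 45.9, 56.2 and 52.8 to 62.4, 59.1 and 62.6 CPM, by 0.25 ± 0.07 (edgeR, adjusted P = 0.00830). No library of these 4 genes crossed into the range of the other group. With the offsets *Sf3b1* and *Sf3a1* were no longer called, at -0.09 and -0.11 (edgeR with offsets, adjusted P = 0.249 and 0.0793), while *Sf3b4* was at -0.29 and *Sf3b5* at 0.34, both called.

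Of 13 *Prpf* genes, 3 fell in the *Pax3* line and no other was called by edgeR, where 1 more was higher at an unadjusted P under 0.05. The share called, 23.1%, is near the 24.5% of all genes called in either direction, while 10.5% of all genes were lower. DESeq2 also called 3 lower and 0 higher. *Prpf8*, the protein at the catalytic centre of the spliceosome, was at 626, 578 and 484 against 459, 519 and 444 CPM, -0.25 ± 0.08 (edgeR, adjusted P = 0.0333). *Prpf6*, a bridging protein of the tri-snRNP, was at 119, 116 and 107 against 95.8, 108 and 99.1 CPM, -0.17 ± 0.06 (edgeR, adjusted P = 0.0351). For *Prpf8* and *Prpf6* mutant replicate 2 lay above wild-type replicate 3, and their calls were lost under 6 and 4 of 15 alternatives. Both belong to the 5 tri-snRNP genes, of which no other was called in this line.

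Transcript length moved with these values in the *Pax3* line. Across the 62 genes the fold change had a Spearman correlation of -0.45 with the length of the reference transcript, and across 15607 genes it was -0.40, with 0.44 for GC content. These are correlations across genes that share libraries. The median fold change of all genes fell from 0.33 for transcripts up to 1000 nt to 0.12, -0.0044 and -0.09 in the ranges up to 2000 nt, up to 4000 nt and over 4000 nt. The medians of the members in these ranges were 0.39, 0.13, 0.05 and -0.09, over 4, 15, 30 and 13 genes. In the *Carm1* line the correlation was -0.31 over the 62 genes and -0.05 over all genes. The part of length in the differences between groups was not tested beyond the following fit.

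Offsets were then used that removed the trends with length and GC from each library. With them the medians of all genes lay between -0.04 and 0.0022 in the 4 ranges. In the *Pax3* line 30 members were called, 23 higher and 7 lower, and 20 of them were among the 24 called without offsets. Over all genes the calls in this line fell from 3851 to 2452 of 15607, of which 1261 were higher and 1191 lower. The 6 Sm genes were still called higher: *Snrpg* by 0.90, *Snrpd2* by 0.85, *Snrpd3* by 0.71, *Snrpf* by 0.45, *Snrpe* by 0.42 and *Snrpb* by 0.30. *Srsf9* was at 0.37 and *Hnrnpa0* at 0.60, also called. *Prpf8* lost its call, as did *Sf3b1* and *Sf3a1*. *Snrpd1* was called lower with offsets, at -0.25 (edgeR with offsets, adjusted P = 6.68e-04), as were *Snrpa* and *Snrpc*. In the *Carm1* line the same offsets gave 20 called members, all higher, with a median over the 62 genes of 0.07. Over all genes they raised the calls there from 868 higher and 1238 lower to 1669 higher of 3075.

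**Figure D4:**
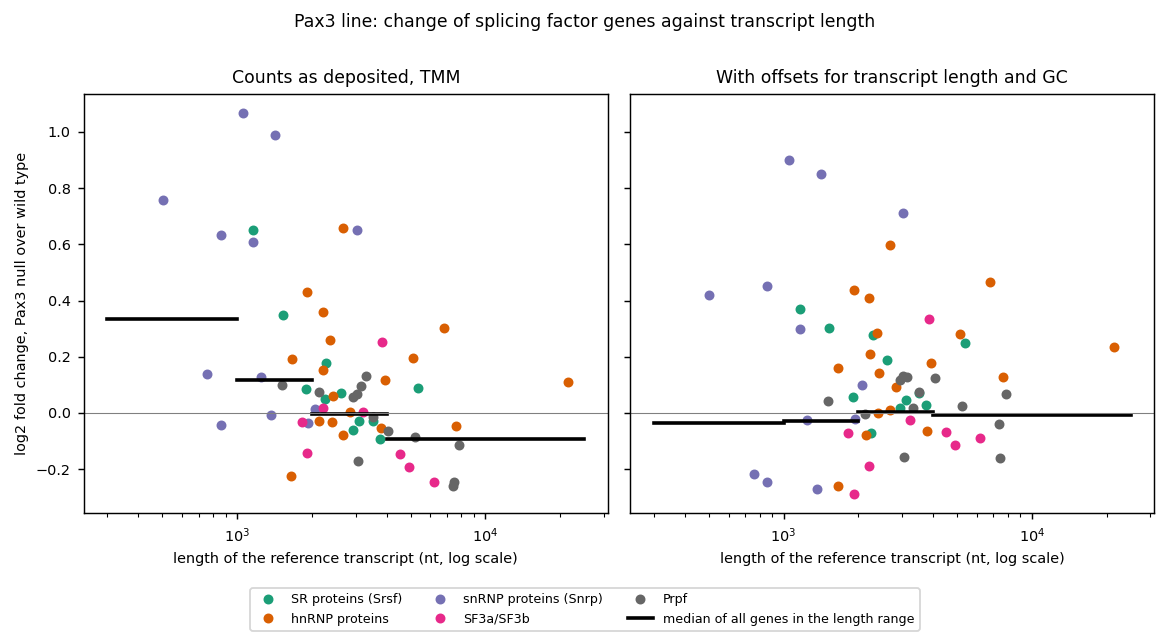
Log2 fold change of the 62 splicing factor genes in the *Pax3* line against the length of the reference transcript (nt, log scale), from the counts as deposited (left) and with offsets for length and GC content (right). Black lines are medians of all genes in 4 length ranges, which run from 0.33 to -0.09 on the left and lie within 0.04 of 0 on the right; *Snrpg*, *Snrpd2* and *Snrpd3* lie above them on either side.

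*Hnrnph3* and *Hnrnpa3* were called in each line, 2 of 62 genes, a share near the 3.73% of the 15461 genes tested in both lines. Another 5 members were called in the *Carm1* line alone, 22 in the *Pax3* line alone and 33 in neither. *Hnrnph3* rose by 0.33 in the former and 0.36 in the latter, and the difference of these effects was -0.02 ± 0.09 (edgeR interaction, adjusted P = 0.894). *Hnrnpa3* moved in opposite directions, with a difference of 0.60 ± 0.07 (edgeR interaction, adjusted P = 7.70e-07).

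The difference of the effects, *Carm1* minus *Pax3*, was called for 18 of 62 genes, against 19.1% of 16292 genes. It was negative for 10 of them, where 10.5% of all genes were called negative, and positive for 8, against 8.65%. All 6 Sm genes that rose in the *Pax3* line were among the 10. For *Snrpg* the effect was 0.04 ± 0.06 in the *Carm1* line and 1.07 ± 0.07 in the *Pax3* line, a difference of -1.01 ± 0.10 (edgeR interaction, adjusted P = 8.80e-08). *Srsf9* differed by -0.63 ± 0.08 (edgeR interaction, adjusted P = 9.10e-07) and *Hnrnpa0* by -0.58 ± 0.09 (edgeR interaction, adjusted P = 1.45e-05). The U2 and tri-snRNP genes made up most of the positive side, with *Sf3a1* at 0.27 ± 0.07 and *Sf3b4* at 0.24 ± 0.07. By class, the calls were 2 *Srsf*, 2 *Hnrnp*, 6 *Snrp*, 5 *Sf3* and 3 *Prpf* genes.

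Other splicing genes were read from lists without members, whose counts stand beside 14% of all genes called higher and 10.5% called lower in the *Pax3* line. The list values are without the offsets, and the part of transcript length in them was not tested. The median of all genes in the *Pax3* line was 0.33 for transcripts up to 1000 nt and 0.12 for 1000 to 2000 nt. In this line 4 of 9 LSm genes were higher, with a median of 0.22. LSm proteins are relatives of the Sm proteins that form rings on U6 and, with *Lsm1*, on decaying mRNA, while *Lsm10* and *Lsm11* belong to the U7 snRNP, and none of these 3 was among the called genes. *Lsm4* rose from 52.6, 67.4 and 65.4 to 99.2, 93.5 and 95 CPM, by 0.63 ± 0.07 (edgeR, adjusted P = 8.53e-07), and *Lsm7* by 0.60 ± 0.07 (edgeR, adjusted P = 5.67e-07). Of 18 snRNP proteins named outside the rule, 8 were higher, with a median of 0.22. Among them *Snrnp70*, the U1 70K protein, rose by 0.43 ± 0.06 (edgeR, adjusted P = 7.07e-06). Of 6 exon junction complex genes, 3 were higher, including *Rbm8a* (0.45 ± 0.06) and *Magoh* (0.33 ± 0.07), which encode the paired core proteins Y14 and MAGOH. The SMN complex and assembly list gave 2 higher of 13, with a median of -0.03. Of 9 genes of 3′ splice site recognition, 3 were higher, among them *U2af2* (0.35 ± 0.06). The Prp19 complex list had 3 higher and 4 lower of 16, the SR-related and kinase list 3 higher and 2 lower of 16, and the helicases 2 lower of 9, *Dhx8* (-0.25 ± 0.06) and *Dhx15* (-0.17 ± 0.06).

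In the *Carm1* line 5.49% of all genes were called higher and 7.83% lower. The SMN complex and snRNP assembly list had 4 higher of 13, and all 13 fold changes were positive, with a median of 0.11. *Coil*, the scaffold of Cajal bodies where snRNPs mature, rose from 35.3, 38.3 and 36.8 to 44.8, 46.1 and 43.3 CPM, by 0.28 ± 0.06 (edgeR, adjusted P = 0.00178). *Prmt5*, the methyltransferase that acts on Sm proteins, rose from 101, 103 and 103 to 112, 115 and 114 CPM, by 0.15 ± 0.05 (edgeR, adjusted P = 0.0216). Of 9 LSm genes, 2 were higher, *Lsm6* and *Lsm5*, each at 0.23. In each of the snRNP, 3′ splice site and Prp19 lists a single gene was called, and it was higher: *Snrnp200* (0.21 ± 0.05), *Ddx39b* (0.15 ± 0.04) and *Plrg1* (0.18 ± 0.05).

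A further list held 32 regulators of alternative splicing, some found mainly in certain tissues and others, such as *Ptbp1*, *Khdrbs1* and *Tial1*, expressed broadly. In *Carm1* KO/KO embryos 10 were lower and 2 higher, where 7.83% and 5.49% of all genes were, and 22 of the 32 fold changes were negative (median -0.10). In *Pax3* Sp2H/Sp2H embryos 8 were lower and 1 higher, where 10.5% and 14% of all genes were (median -0.07). *Celf2*, a CELF family regulator of muscle and brain exons, fell in each line, by 0.21 in *Carm1* KO/KO (SE 0.05, edgeR, adjusted P = 0.00229) and 0.33 in *Pax3* Sp2H/Sp2H embryos (SE 0.06, edgeR, adjusted P = 4.67e-04). *Celf5* fell by 0.29 and *Tial1* by 0.23 in *Carm1* KO/KO embryos, while *Ptbp1*, a repressor of neuronal exons, rose by 0.13 there (edgeR, adjusted P = 0.0442) and fell by 0.23 in *Pax3* Sp2H/Sp2H embryos (edgeR, adjusted P = 0.00935). *Elavl4*, a neuronal RNA-binding protein that also stands among the neuron markers below, fell by 0.30 in the *Pax3* line and was at -0.01 ± 0.05 in the *Carm1* line. The difference of the effects was 0.37 ± 0.07 for *Ptbp1* (edgeR interaction, adjusted P = 3.80e-04) and 0.31 ± 0.08 for *Elavl4* (edgeR interaction, adjusted P = 0.00921).

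Cell type markers moved with the groups, and their part in the values above was not tested. In *Carm1* KO/KO embryos 8 of 8 hepatocyte genes, 4 of 8 neuron genes and 5 of 7 skeletal muscle genes were lower, and 6 of 7 neural progenitor genes were higher. Of 5 erythroid genes tested 3 were lower and 0 were called higher, though 1 had a positive fold change, of 1.10. The summed erythroid level overlapped, at 6997 to 8326 CPM in mutant and 5098 to 9043 CPM in wild-type libraries. Of 5 cardiac genes 2 were lower. The summed hepatocyte level was 746 to 871 CPM in mutant and 1398 to 1704 CPM in wild-type libraries, and that of neural progenitor genes 1028 to 1076 against 776 to 822 CPM. In *Pax3* Sp2H/Sp2H embryos 6 of 7 skeletal muscle genes and 4 of 8 neuron genes were lower, and 4 of 7 neural progenitor and 4 of 5 cardiac genes were higher. Skeletal muscle genes summed to 149.9 to 169.6 CPM in mutant and 279 to 334 CPM in wild-type libraries there. Of 6 cycling cell genes, 1 was higher and 1 lower in the *Pax3* line, and their summed level there was 1892 to 2064 CPM in mutant and 2070.2 to 2366 CPM in wild-type libraries. In the *Carm1* line it was 1998 to 2151 CPM in mutant and 1972 to 1978 CPM in wild-type libraries. The summed hepatocyte level in the *Pax3* line was 842 to 923 CPM in mutant and 1014 to 1257 CPM in wild-type libraries, lower without overlap. Only 1 of the 8 hepatocyte genes was called lower in this line, and 2 had a positive fold change. The median was -0.25, against -0.99 in the *Carm1* line.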

How the data were processed

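Polyadenylated RNA of 12 whole embryos, 3 per group, was sequenced by the authors. The authors aligned paired 150 bp reads to mm10 with STAR and summed them per gene with featureCounts, and deposited raw counts per gene and library, whole numbers without normalization. Versions, strand setting, annotation and the treatment of reads with several matches are not given in the sources used here. Depth was 17183344 to 23518692 counts per library.

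Groups and replicate numbers came from the labels. Each line was fitted on its own over all genes with edgeR 4.0.16 (R 4.3.3): filterByExpr, TMM, the robust quasi-likelihood test and Benjamini-Hochberg adjustment with a threshold of 0.05. The difference of the lines was an interaction in a fit of 12 libraries. An exact permutation test of 3 against 3 libraries cannot go below P = 0.1. The labels do not name litters, so P values measure the spread between these embryos. The members and lists were chosen with earlier results of these data known. The genes named are, per line and class, up to 3 higher and 3 lower calls with the smallest P, calls shared by or different between lines, the highest and lowest genes of a class, CARM1 substrates, up to 2 higher and 2 lower genes per list, and the targeted genes. A few genes that this rule selects are counted but not reported here by name. *Snrpd2*, *Snrpf*, *Snrpd1*, *Srsf1* and the remaining calls were named after their values were seen.

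Positions, lengths and overlaps came from GENCODE M21 (GRCm38), which matched 62 of 62 members, 21777 symbols as written and 1284 through older symbols. A copy is a match of at least 97% identity over 300 nt, and 13 members had such a copy. Exons of other genes overlap 26 members, whose counts are uncertain where strand was ignored. Upstream sequences came from RefSeq, which held windows for 55 members and not for *Snrpb*, *Snrpd1*, *Sf3b4*, *Sf3b5*, *Prpf18* and *Hnrnpul2*, among others. Alternatives were RLE and upper-quartile factors, DESeq2 1.42.0, no filter, at least 10 counts in every library, a fit of 12 libraries, a replicate block, a term for libraries with 100 or more Y-linked counts, offsets for length and GC content (splines with 5 degrees of freedom), and leaving out each library. Tests were checked on simulated counts.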

Additional observations from a re-analysis of the deposited data

Results flagged for a closer look

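The effects of the lines differed by an interaction test (edgeR, Benjamini-Hochberg adjusted P under 0.05 over 16292 genes) for 18 splicing factor genes, of which 17 are given here, as the *Carm1* effect minus the *Pax3* effect on the log2 scale. Among snRNP genes the difference was -1.01 for *Snrpg*, -0.89 for *Snrpd2*, -0.66 for *Snrpd3*, -0.62 for *Snrpb*, -0.60 for *Snrpe* and -0.57 for *Snrpf*. It was -0.63 for *Srsf9* and -0.27 for *Srsf5* among SR proteins, and 0.60 for *Hnrnpa3* and -0.58 for *Hnrnpa0* among hnRNP genes. In the U2 subunits it was 0.27 for *Sf3a1*, 0.24 for *Sf3b4*, 0.24 for *Sf3b3*, 0.19 for *Sf3a3* and -0.25 for *Sf3b5*. In the *Prpf* genes it was 0.29 for *Prpf8* and 0.23 for *Prpf6*. The differences of the 6 Sm genes, *Srsf9*, *Srsf5*, *Hnrnpa0*, *Hnrnpa3* and *Sf3a1* kept an adjusted P under 0.05 in each of 20 alternatives. Groups of 3 libraries are too small for a test of single outlying libraries. Strain and laboratory cannot be told apart from the line in any of these differences.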

How the results depend on the processing

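The count of called members in the *Carm1* line, 7 of 62, was the least steady value: 11 with a term for the libraries that hold Y-linked counts, 20 with offsets for length and GC content, 4 among the 36 members with no exon overlap (an alternative chosen after seeing the data), and 2 to 11 when single libraries were left out. It was 2 without wild-type replicate 2 or mutant replicate 1, 3 without mutant replicate 2 and 11 without wild-type replicate 3. Calls over all genes in these fits were, in the same order, 1349, 1224, 1381 and 2029, against 2106 with every library. In the *Pax3* line the 24 calls ranged from 15 to 24 when single libraries were left out, with 15 without mutant replicate 1. In that fit calls over all genes were 2565, against 3851 with every library. The 18 calls of the interaction ranged from 12 to 19 in the same way. With offsets *Snrpc* turned to -0.22 in the *Pax3* line and its interaction to 0.35. The cause was not tested. Normalization factors, DESeq2, filters and the fit of all 12 libraries gave 6 to 8, 23 to 25 and 17 to 21 calls for the *Carm1* line, the *Pax3* line and the interaction. With the replicate block the calls were 5, 24 and 17. Deviations of same-numbered libraries had correlations of -0.06, -0.00065 and -0.05 in the *Carm1* line and 0.19, -0.08 and 0.27 in the *Pax3* line. For libraries with different numbers they ran from -0.02 to 0.07 and from -0.38 to 0.26. With 3 libraries per group these values cannot decide whether the numbers pair the libraries. DESeq2 called 1438 genes of all those tested in the *Carm1* line and 3293 in the *Pax3* line, against 2106 and 3851 by edgeR. With 3 libraries per group at this depth, the smallest called changes of members were 0.15 in the *Carm1* line and -0.14 in the *Pax3* line on the log2 scale. By class, the *Carm1* line with offsets gave 7 *Hnrnp*, 4 *Snrp*, 3 *Sf3* and 3 *Srsf* calls. The Y-linked term gave 1 *Prpf*, 4 *Snrp* and 1 *Srsf* call there, no filter gave 2 *Snrp* calls, and DESeq2 and the replicate block each gave 0 *Sf3* calls. In the *Pax3* line offsets gave 1 *Prpf* and 5 *Srsf* calls. For the interaction, *Hnrnp* calls were 6 with DESeq2, 4 with at least 10 counts in every library, 4 with the Y-linked term and 5 with offsets, and *Srsf* calls were 4 with offsets. Leaving out single libraries in the *Carm1* line gave 2 to 4 *Hnrnp*, 0 to 3 *Prpf*, 0 to 1 *Sf3*, 0 to 4 *Snrp* and 0 to 1 *Srsf* calls. In the *Pax3* line it gave 5 to 9 *Hnrnp*, 1 to 3 *Prpf*, 1 to 4 *Sf3*, 6 *Snrp* and 2 to 3 *Srsf* calls, and for the interaction 2 to 4 *Hnrnp*, 0 to 3 *Prpf*, 2 to 5 *Sf3*, 6 *Snrp* and 2 to 3 *Srsf* calls.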
